A study of Mus musculus with 12 samples.

Results

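GFP-positive mammary myoepithelial cells traced with Ucp1-iCre were compared with GFP-positive mammary myoepithelial cells traced with Myf5-Cre. The comparison rests on 4 of the 12 RNA sequencing libraries of the series, 2 for each Cre line, taken by their sample labels. Every mouse was C57BL/6 and carried the ROSAmTmG reporter, in which Cre turns red membrane fluorescence into green. The Ucp1-iCre group and the Myf5-Cre group were both taken on day 10 of lactation and sorted as lineage-negative, CD24-positive, CD29-high cells that were green. The GFP-negative cells from the same gate and the same day, again 2 libraries for each line, carry the same Cre and reporter and were used as the background between the lines. GFP-positive brown adipocytes of 8-week-old females, 2 libraries for each line, gave a reference level for adipocyte genes. The labels do not list the lineage antibodies and do not say whether the libraries of a group came from separate animals or pooled ones, so each p-value measures only the spread between libraries, which may be technical. In the text, Ucp1-traced and Myf5-traced cells are the GFP-positive myoepithelial sorts, and each set of values is given in the order library 1, library 2. Attention was kept mainly to the 7457 of 16953 tested genes with at least 10 counts in both Ucp1-traced libraries, because many other genes were missing from one or both of them.

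Myoepithelial cells form the outer, basal layer of mammary ducts and alveoli. They carry basal keratins and a smooth-muscle contractile apparatus, and they squeeze milk out of the alveoli when oxytocin reaches them. Myf5 encodes a muscle regulatory factor of the embryo, and Myf5-Cre marks precursors of skeletal muscle and of much of the classical brown fat. Ucp1 encodes the uncoupling protein with which brown and beige adipocytes make heat. The reporter switch is inherited by daughter cells, so green fluorescence records that a cell or one of its forebears made the Cre, whatever the driver gene does at the time of the sort.

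The driver genes and the sort markers were read first. Ucp1 had 0 counts in all 4 libraries, where the brown adipocytes had 12570 and 16440 CPM (library-size-scaled counts, corrected by the normalization factors) in the Myf5-Cre line and 950.1 and 3312 in the Ucp1-iCre line. Myf5 had 193 counts, 12.02 CPM, in Myf5-traced library 1 and 0 in the other 3 GFP-positive libraries. Neither driver gene was therefore detected in the Ucp1-traced cells at the time of the sort. Itgb1, which encodes CD29, stood at 382 and 834 CPM in Myf5-traced and 697 and 866 in Ucp1-traced cells (log2 difference 0.36, SE 0.50, edgeR adjusted p = 0.696). Cd24a, which encodes CD24, stood at 52.4 and 13.1 CPM in Myf5-traced and 0.625 and 16.9 in Ucp1-traced cells (log2 difference -1.90, SE 1.38, edgeR adjusted p = 0.375). The groups overlapped for both sort genes.

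Total counts were 15118406 and 24011083 for the Myf5-traced and 22313233 and 32956480 for the Ucp1-traced libraries, within the 11027738 to 32956480 of all 12. Both Ucp1-traced libraries held fewer genes than either Myf5-traced one: 10909 and 10560 genes had a count, against 13761 and 16238 and, further, 15589 to 19794 in the GFP-negative myoepithelial libraries. Among genes that averaged 5 to 10 CPM in the Myf5-traced cells, 47.3% and 48.2% had fewer than 3 counts in the Ucp1-traced libraries. Of the 249 genes at 500 CPM or more there, 2.41% and 5.22% were missing in the same sense, a count that rests on levels chosen in the Myf5-traced cells. Across the tested genes, log2(CPM + 1) correlated between replicates at r = 0.731 in the Ucp1-traced and 0.879 in the Myf5-traced cells, and at 0.661 to 0.732 between the groups, a description across genes that are not independent. In 3138 cases a gene had at least 10 counts in one Ucp1-traced library and 0 in the other. A count of 0 in both Ucp1-traced libraries is accordingly given as a bound, from 3 counts over their summed total, and it covers counting error only. In bulk libraries such as these, fewer cells of a type and less RNA per cell cannot be told apart.

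**Figure D1:**
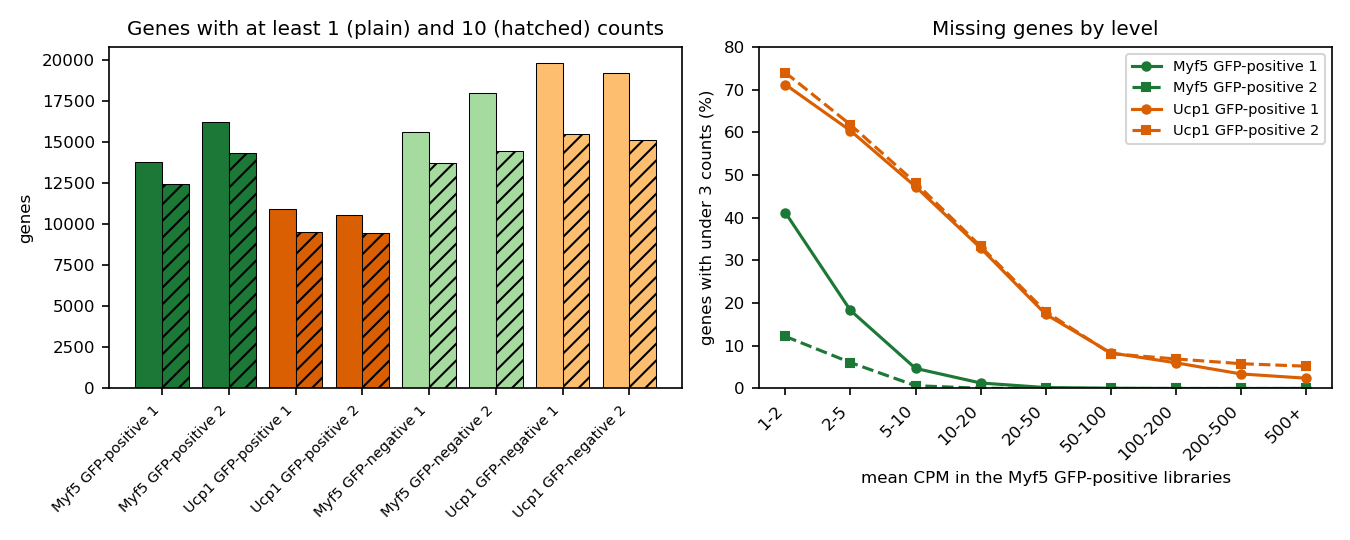
Left, genes with at least 1 count (plain bars) and at least 10 counts (hatched bars) in each of the 8 myoepithelial libraries. Right, percent of genes with fewer than 3 counts in each GFP-positive library, in bins of mean CPM in the Myf5-traced cells. The Ucp1-traced libraries, at 10909 and 10560 genes, lie below the Myf5-traced ones at 13761 and 16238, and miss 47.3% and 48.2% of genes at 5 to 10 CPM.

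Of the 16953 genes tested with edgeR's quasi-likelihood test across all 12 libraries, 2934 (17.3%) passed an adjusted p of 0.05. In the Ucp1-traced cells 362 of them (2.14%) were higher and 2572 (15.2%) lower. Of the 2572, 1691 had 0 counts in both Ucp1-traced libraries and 2151 had fewer than 10 counts in at least 1. Among the 7457 genes with at least 10 counts in both, 778 (10.4%) passed, 357 higher (4.79%) and 421 lower (5.65%), with a median log2 difference of 0.28. That minimum is set on one of the groups compared and favours higher values in it, so nothing is read from this balance. Without overlap between the groups, 30.6% of the 7457 were higher and 22.1% lower. With at least 10 counts in all 4 libraries, 7040 genes remained and 724 (10.3%) passed, 303 higher (4.3%) and 421 lower (5.98%), and 28.6% were higher and 23.4% lower without overlap. Fbn1, with 10 counts in its poorer Ucp1-traced library, is just inside the minimum of 10, and Golim4, with 9, is just outside it: Golim4 stood at 83.1 and 90.0 CPM in Myf5-traced and 0.331 and 21.3 in Ucp1-traced cells. The calls lean on the spread estimated from the other groups: a fit of the 4 libraries alone passed 0 of these genes by edgeR, with 828 of those with at least 10 counts in both Ucp1-traced libraries under an unadjusted p of 0.05. They also lean on single libraries, since the 778 became 257 without Myf5-traced library 1, 1424 without Ucp1-traced library 1 and 1517 without Ucp1-traced library 2.

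Many genes of the fat cell were higher in the Ucp1-traced than in the Myf5-traced cells. The 23 general adipocyte genes summed to 9985 and 5728 CPM in Myf5-traced and 11410 and 12770 in Ucp1-traced cells. In the GFP-negative cells the sum was 27290 and 14900 CPM in the Myf5-Cre line and 12300 and 13530 in the Ucp1-iCre line. Between the GFP-negative lines the median log2 difference was 0.65. There 11 were higher without overlap and 3 lower, against 30.4% and 17.8% of all genes. Between the GFP-positive groups, 6 of the 23 rose and 1 fell by the test, against 2.14% and 15.2% of all genes tested. Both Ucp1-traced libraries were above both Myf5-traced ones for 14, against 13.6% of all genes tested. The median log2 difference over the list was 1.85, against -0.36 over all genes tested. Among the 18 members with at least 10 counts in both Ucp1-traced libraries, the same 14 were higher without overlap (30.6% of genes with that minimum). Their median was 2.31, against 0.28, but that minimum favours higher values in the Ucp1-traced cells. With at least 10 counts in all 4 libraries, 14 members remained and the median was 1.58, against 0.21. The 6 that rose were Adipoq, Lipe, Dgat2, Car3, Gpd1 and Aqp7. Their number fell to 4 without Myf5-traced library 1 and reached 8 without Ucp1-traced library 1.

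Adipoq (ENSMUSG00000022878, chromosome 16, 23146536 to 23158028 on the plus strand of mm10) encodes adiponectin, a hormone that fat cells secrete. It had 0 counts in both Myf5-traced libraries and 12.5 and 17.0 CPM in the Ucp1-traced cells, at least 219-fold higher (edgeR adjusted p = 0.00353). GFP-negative cells held 0 and 0.283 CPM in the Myf5-Cre line and 3.13 and 1.04 in the Ucp1-iCre line. The brown adipocytes, by comparison, held 1573 and 1026 CPM in the Myf5-Cre line and 265.3 and 821.5 in the Ucp1-iCre line. Adiponectin mRNA was thus present in the Ucp1-traced cells at a small part of its level in sorted fat cells. The RefSeq promoter window of Adipoq in the GRCm38.p6 assembly, chr16:23146286-23146585 on the plus strand, from 250 bases before to 50 after the transcript start, is printed because this fat-cell gene had no count in one group and a similar level in both libraries of the other. Capitals mark CCAAT on either strand, the sequence that CCAAT-binding factors recognise, and 37.4% of the 32841 promoter windows of this length hold at least 1.
Adipoq: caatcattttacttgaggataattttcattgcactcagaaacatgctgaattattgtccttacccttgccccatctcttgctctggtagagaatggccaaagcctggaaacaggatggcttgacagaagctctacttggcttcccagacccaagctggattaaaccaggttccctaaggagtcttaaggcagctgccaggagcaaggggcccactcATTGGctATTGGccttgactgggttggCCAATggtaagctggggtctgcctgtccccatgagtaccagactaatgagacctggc
The window holds 3 matches, all within 34 bases before the start. A match describes these letters and is neither a shown binding site nor a cause of the difference.

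Enzymes of fat storage and release made up most of the other calls. Lipe (ENSMUSG00000003123, chromosome 7, 25379527 to 25398710, minus strand), hormone-sensitive lipase, stood at 18.6 and 20.2 CPM in Myf5-traced and 124.5 and 183 in Ucp1-traced cells. Both Ucp1-traced libraries were far above both Myf5-traced ones, by 2.98 on the log2 scale (SE 0.47, edgeR adjusted p = 0.0027). In the GFP-negative cells Lipe was 70.9 and 63.1 CPM in the Myf5-Cre line and 63.4 and 72.5 in the Ucp1-iCre line, and the test of whether the line effect differed between green and GFP-negative cells passed (edgeR adjusted p = 0.0142). Dgat2, which makes the last bond of a triglyceride, stood at 3.43 and 2.85 CPM against 40.0 and 89.9 (log2 difference 4.37, SE 0.78, edgeR adjusted p = 0.00508). GFP-negative cells held 5.55 and 8.70 CPM of Dgat2 in the Myf5-Cre line and 9.47 and 8.38 in the Ucp1-iCre line, and the same test passed (edgeR adjusted p = 0.0302). Lipe and Dgat2 were the only general adipocyte genes of which this was true.

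Aqp7, the glycerol channel of fat cells and capillaries, stood at 124 and 204 CPM in Myf5-traced and 582 and 605 in Ucp1-traced cells (log2 difference 1.85, SE 0.42, edgeR adjusted p = 0.0156). GFP-negative cells held 533 and 353 CPM of Aqp7 in the Myf5-Cre line and 403 and 477 in the Ucp1-iCre line. Every one of these lay above both Myf5-traced libraries. For Car3, whose carbonic anhydrase fat and muscle hold in quantity, the levels were 19.2 and 24.5 CPM against 487 and 112, and its rise (log2 difference 3.78, SE 0.87, edgeR adjusted p = 0.0164) had its higher value in Ucp1-traced library 1. Gpd1, which supplies glycerol phosphate for triglyceride, stood at 6.48 and 8.24 CPM against 86.2 and 22.7 (log2 difference 2.88, SE 0.83, edgeR adjusted p = 0.041). None of the 3 overlapped between the groups. Without Myf5-traced library 1 the adjusted p was 0.0776 for Aqp7, 0.0939 for Car3 and 0.164 for Gpd1, and Gpd1 also missed the threshold without Myf5-traced library 2 or Ucp1-traced library 1. Plin4, a lipid-droplet coat protein, was the member that fell, from 6.17 and 10.3 CPM to 0.110 and 0.607 (log2 difference -4.48, SE 1.29, edgeR adjusted p = 0.0413), a call lost without either Myf5-traced library or without Ucp1-traced library 1.

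Other members were higher in both Ucp1-traced libraries without passing. Pck1, which feeds glyceroneogenesis, stood at 1.93 and 0 CPM against 50.9 and 64.6 (edgeR adjusted p = 0.0693). Cebpa, an adipogenic transcription factor, stood at 4.24 and 3.94 CPM against 12.1 and 28.3 (edgeR adjusted p = 0.0588). Lpl, the lipase that takes fatty acids from lipoproteins, stood at 565 and 447 CPM against 807 and 1690 (edgeR adjusted p = 0.109). Pparg, the nuclear receptor at the head of the fat-cell programme, stood at 188 and 215 CPM against 281 and 274 (edgeR adjusted p = 0.472), and Fabp4, a fatty acid binding protein, overlapped at 6222 and 2168 against 3786 and 4814. Pck1, Cebpa, Lpl and Pparg were thus higher in both Ucp1-traced libraries by amounts within the spread the test allows, and Fabp4 was not.

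**Figure D2:**
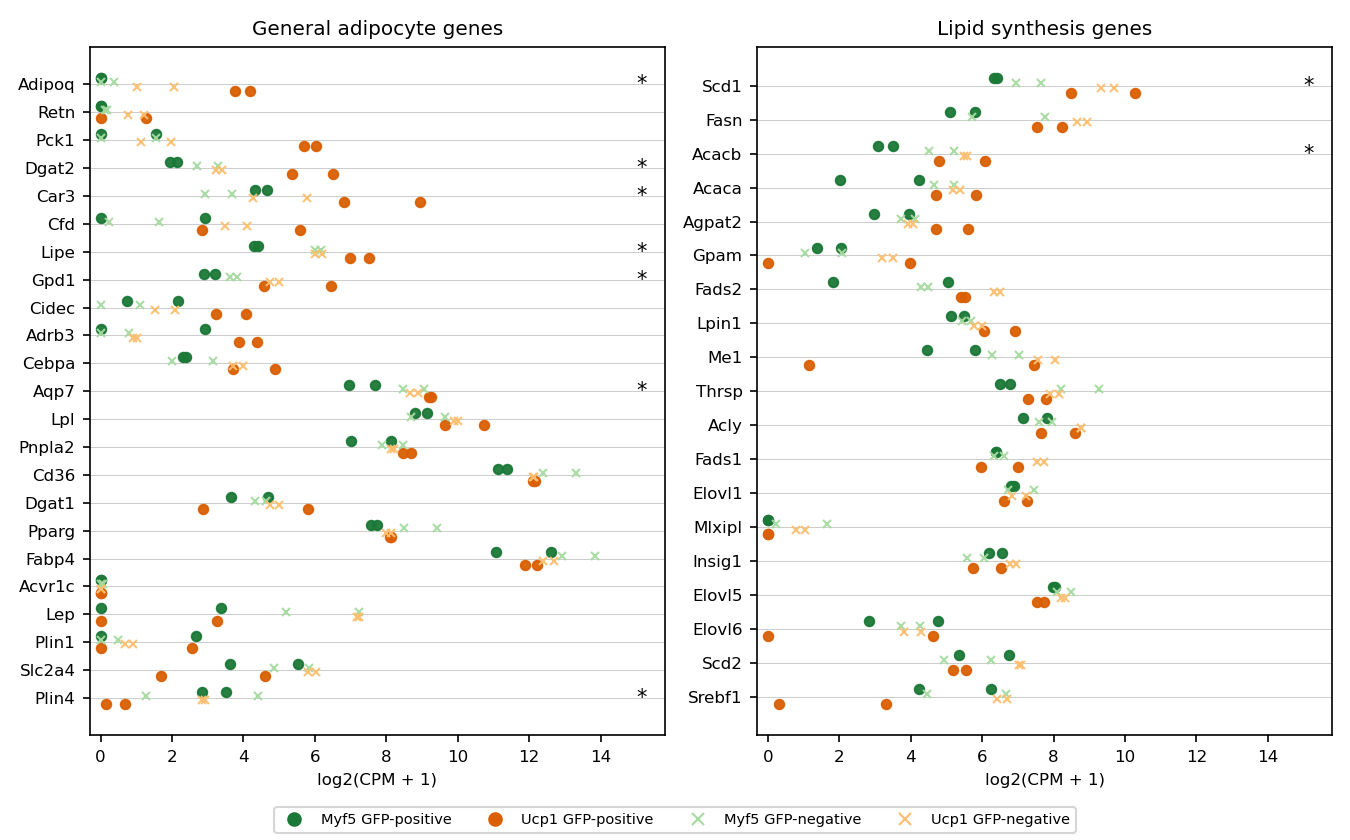
Level as log2(CPM + 1) of each general adipocyte gene (left) and lipid synthesis gene (right), with 1 point per myoepithelial library, filled for GFP-positive and crossed for GFP-negative cells, and a star where the edgeR adjusted p was under 0.05. Lipe and Dgat2 lie higher in both Ucp1-traced libraries than in any of the other 6 myoepithelial libraries. Pparg and Fabp4 carry no star, and Fabp4 overlaps between the GFP-positive groups.

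Endothelial marker sums were higher in the same libraries. The summed level of 14 endothelial markers was 1933 and 3210 CPM in Myf5-traced and 7839 and 10720 in Ucp1-traced cells, with 6514 and 6592 in the GFP-negative cells of the Myf5-Cre line and 7736 and 8099 in those of the Ucp1-iCre line. Only 1 of the 14, Egfl7, rose by the test, from 128 and 158 to 473 and 331 CPM (log2 difference 1.49, SE 0.44, edgeR adjusted p = 0.0463), and 1 fell. Over all genes, 2.14% rose and 15.2% fell. Without overlap 9 were higher, against 13.6% of all genes, all of them among the 13 members above the minimum of 10 counts, where the share was 30.6%, and the median was 1.64. Kdr, the VEGF receptor of endothelium, stood at 146 and 301 CPM against 1402 and 2646 (edgeR adjusted p = 0.0925), and Cldn5, its tight-junction protein, at 83.9 and 157 against 1226 and 1771 (edgeR adjusted p = 0.0512). Pecam1 stood at 171 and 254 CPM against 969 and 1201 (edgeR adjusted p = 0.177). Ackr1, a marker of venules, fell from 149 and 76.1 CPM to 0 in both, at least 2570-fold lower (edgeR adjusted p = 0.00226). Egfl7 lost its call without either Myf5-traced library or without Ucp1-traced library 1. Capillary endothelium also makes Cd36, Fabp4 and Aqp7, and the part of endothelial RNA in the adipocyte result was not tested.

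Genes of lipid synthesis and milk fat followed in part. Of 19 lipid synthesis genes, 2 rose, against 2.14% of all genes, and 0 fell. Without overlap 8 were higher, against 13.6%, all among the 16 above the minimum of 10 counts, where the share was 30.6%. The median log2 difference was 0.92, and between the GFP-negative cells of the lines it was 0.65, with 11 of the 19 higher without overlap. Scd1, the desaturase that makes oleate, stood at 85.1 and 80.1 CPM in Myf5-traced and 358 and 1247 in Ucp1-traced cells (log2 difference 3.28, SE 0.80, edgeR adjusted p = 0.0212). Its difference between the GFP-negative cells was 2.18 on the same scale. Acacb, an acetyl-CoA carboxylase, stood at 7.54 and 10.3 CPM against 66.1 and 26.8 (log2 difference 2.38, SE 0.59, edgeR adjusted p = 0.0225). Both calls were lost without either Myf5-traced library, that of Scd1 also without Ucp1-traced library 2 and that of Acacb without Ucp1-traced library 1. Fasn, fatty acid synthase, stood at 33.5 and 54.6 CPM against 185 and 300 (edgeR adjusted p = 0.0628).

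Among 12 milk genes, Xdh alone passed, where 17.3% of all genes did. Xdh (ENSMUSG00000024066, chromosome 17, 73883895 to 73950196, minus strand) encodes xanthine oxidoreductase, which also coats milk fat globules, and it is made by capillary endothelium as well. It stood at 158 and 266 CPM in Myf5-traced and 763 and 1463 in Ucp1-traced cells, with no overlap (log2 difference 2.39, SE 0.45, edgeR adjusted p = 0.00639), and it passed without each of the 4 libraries in turn. The GFP-negative cells differed by 1.02 in the same direction. The milk proteins did not separate the groups: Csn2, beta-casein, stood at 16610 and 6946 CPM against 8254 and 9225 (edgeR adjusted p = 0.702), and the whey gene Wap at 4007 and 2122 against 2633 and 3975 (edgeR adjusted p = 0.989). Milk genes took 4.73% and 2.39% of counts in the Myf5-traced and 3.24% and 3.49% in the Ucp1-traced libraries.

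The thermogenic programme of brown fat did not rise as a group. Of 17 thermogenic or brown-fat genes tested, 1 rose and 3 fell, near the 15.2% of all genes called lower. On the list, 8 of the 18 had 0 counts in both Ucp1-traced libraries, as did 4834 of the 16953 genes tested. In both Myf5-traced libraries 4 had 0 counts, as did 1607 of the genes tested. The median was 0 beside 0.38 for the 7 with at least 10 counts in both Ucp1-traced libraries. Letmd1, a mitochondrial protein needed for brown-fat heat production, rose from 12.1 and 13.0 to 46.1 and 75.2 CPM (log2 difference 2.27, SE 0.66, edgeR adjusted p = 0.0423), a call lost without either Myf5-traced library or Ucp1-traced library 2. Cidea, a lipid-droplet protein of brown adipocytes and of lactating epithelium, overlapped at 171 and 118 against 137 and 184 CPM (edgeR adjusted p = 0.95). Dio2, which activates thyroid hormone, fell from 23.4 and 4.15 CPM to 0 in both libraries, at least 314-fold lower (edgeR adjusted p = 0.00654). Lhx8 and Zic1, transcription factors used as marks of classical brown fat, were also at 0 in both Ucp1-traced libraries. Lhx8 had 17.3 and 3.06 CPM in the Myf5-traced cells, at least 232-fold more (edgeR adjusted p = 0.00827), and Zic1 had 11.96 and 0.493, at least 142-fold more (edgeR adjusted p = 0.0332), a call lost without Myf5-traced library 1, Ucp1-traced library 1 or Ucp1-traced library 2. Lhx8 and Zic1 were both higher in Myf5-traced library 1, the GFP-positive library with Myf5 counts, than in library 2. Zic1 averaged 5 to 10 CPM in the Myf5-traced cells, where 30.2% of genes had fewer than 3 counts in both Ucp1-traced libraries. Dio2 and Lhx8 averaged 10 to 20 CPM, where 17.7% did.

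Most of the contractile genes that define the sorted cell were detected in both groups. Of the 17 on the list, 12 had at least 10 counts in all 4 libraries and 2 had 0 in both Ucp1-traced ones. The sum of 17 smooth-muscle contractile genes was 6280 and 8949 CPM in Myf5-traced and 2376 and 4852 in Ucp1-traced cells, both below the GFP-negative cells, at 11740 and 23520 in the Myf5-Cre line and 14450 and 17060 in the Ucp1-iCre line. Of the 17, 0 rose and 3 fell, near the 15.2% called lower over all genes, and 9 were lower without overlap, against 29.9% of all genes, and 2 higher. The median log2 difference was -1.66, against -0.36. Acta2 (ENSMUSG00000035783, chromosome 19, 34241090 to 34255590, minus strand), smooth-muscle actin and the usual mark of the myoepithelium, stood at 1578 and 1547 CPM against 145 and 1384 (edgeR adjusted p = 0.413). Among the GFP-positive libraries, Ucp1-traced library 1 was far below the others. Every GFP-positive library was below the GFP-negative ones, at 3597 and 4828 CPM in the Myf5-Cre line and 4291 and 5610 in the Ucp1-iCre line. Tpm1, a tropomyosin, fell from 749 and 1134 to 115 and 374 CPM (log2 difference -1.95, SE 0.59, edgeR adjusted p = 0.0493), a call lost without either Myf5-traced library or Ucp1-traced library 1. Tagln, transgelin, stood at 789 and 1090 CPM against 170 and 353 (edgeR adjusted p = 0.0515).

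Myh11, smooth-muscle myosin, overlapped at 418 and 1389 against 596 and 682 CPM (edgeR adjusted p = 0.707), and Cnn1, calponin, at 129 and 304 against 262 and 318 (edgeR adjusted p = 0.782). The groups overlapped for both of these genes. Des, the intermediate filament desmin, fell from 81.5 and 163 CPM to 0 in both Ucp1-traced libraries, at least 2790-fold lower (edgeR adjusted p = 0.00088). At 5 to 10 CPM in the Myf5-traced cells, the level of Myocd, 30.2% of genes had fewer than 3 counts in both Ucp1-traced libraries. Myocd, the coactivator that drives smooth-muscle genes with serum response factor, fell from 2.12 and 8.69 CPM to 0, at least 123-fold lower (edgeR adjusted p = 0.0288), and missed the threshold without Myf5-traced library 2.

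Of the basal epithelial genes, Itga6 and Dst rose and Egfr fell. The list's 18 members summed to 581.1 and 783.5 CPM in Myf5-traced and 2350 and 1712 in Ucp1-traced cells, and to 3181 to 6189 in the 4 GFP-negative libraries. Of the 18, 2 rose, against 2.14% of all genes, and 1 fell, against 15.2%. Without overlap 1 was lower and 7 were higher, against 13.6% of all genes, and all 7 were among the 11 members above the minimum of 10 counts, where 30.6% of genes were higher. The median was 0.98, against -0.44 for the same list between the GFP-negative cells. Itga6 (ENSMUSG00000027111, chromosome 2, 71745616 to 71858416, plus strand), the laminin-binding integrin chain of the basal layer, rose from 55.4 and 111 to 826 and 389 CPM (log2 difference 2.87, SE 0.62, edgeR adjusted p = 0.0125), a call lost without Myf5-traced library 1. Dst, which encodes the hemidesmosome plakin dystonin, rose from 167 and 163 to 940 and 397 CPM (log2 difference 2.02, SE 0.54, edgeR adjusted p = 0.0309), a call lost without either Myf5-traced library or Ucp1-traced library 1. In the GFP-negative cells Itga6 stood at 254 and 493 CPM in the Myf5-Cre line and 411 and 357 in the Ucp1-iCre line. Dst stood there at 241 and 408 against 269 and 200 CPM. For both genes every GFP-negative library was above both Myf5-traced ones, and Ucp1-traced library 2 lay within the GFP-negative range. Itga6 is also made by capillary endothelium, and the endothelial share in its GFP-positive difference was not tested.

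The basal keratins pointed the same way without passing. Krt5 stood at 10.0 and 31.6 CPM in Myf5-traced and 71.1 and 107 in Ucp1-traced cells (edgeR adjusted p = 0.103), against 179 and 657 in the GFP-negative cells of the Myf5-Cre line and 312 and 344 in those of the Ucp1-iCre line. Krt14 stood at 3.99 and 54.4 CPM against 56.1 and 162 (edgeR adjusted p = 0.256), with 493 to 831 in the GFP-negative libraries. Both keratins were thus below every GFP-negative library in all 4 GFP-positive ones, and Krt14 at 3.99 CPM in Myf5-traced library 1 leaves that library with little of a defining mark of its label. Egfr, the epidermal growth factor receptor of basal cells and fibroblasts, fell from 92.0 and 48.7 CPM to 0 in both Ucp1-traced libraries, at least 1600-fold lower (edgeR adjusted p = 0.00088).

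Luminal genes summed to 157.7 and 185 CPM in Myf5-traced and 300.6 and 320.2 in Ucp1-traced cells, below the 749.8 to 900.6 of the GFP-negative libraries. Of 18, 0 rose and 2 fell, against 15.2% of all genes called lower. Without overlap 4 were higher and 4 lower, against 13.6% and 29.9% of all genes. The median log2 difference over the list was -0.13, a value that changes sign under several settings. Among the 8 members with at least 10 counts in both Ucp1-traced libraries the median was 1.24. Of these, 4 were higher without overlap and 0 lower. That minimum favours higher values there, and 30.6% of genes with it were higher and 22.1% lower. Krt18 stood at 16.5 and 12.6 CPM against 46.4 and 27.9, and Krt8 overlapped at 7.04 and 27.4 against 22.6 and 153. Neither passed. Esr1, the oestrogen receptor, fell from 16.0 and 14.96 CPM to 0 in both Ucp1-traced libraries, at least 353-fold lower (edgeR adjusted p = 0.00216). Spint1, a membrane protease inhibitor of epithelia, fell from 2.99 and 2.50 CPM to 0, at least 62.6-fold lower (edgeR adjusted p = 0.00575). Missing genes were common at these levels. Fewer than 3 counts in both Ucp1-traced libraries were found for 44.7% of genes at 2 to 5 CPM in Myf5-traced cells. At 10 to 20 CPM, the level of Esr1, the share was 17.7%. Mammary fibroblasts also make the oestrogen receptor, and the part of their RNA in the Esr1 value was not tested.

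Stromal markers separated the groups completely. All 15 fibroblast and preadipocyte genes were lower in both Ucp1-traced libraries than in both Myf5-traced ones, against 29.9% of all genes tested. By the test 7 of the 15 fell, against 15.2% of all genes, and the median over all 15 was -4.66. Their sum was 22760 and 13730 CPM in Myf5-traced and 1229 and 651.5 in Ucp1-traced cells, against 1988 and 1205 in the GFP-negative cells of the Myf5-Cre line and 4569 and 4124 in those of the Ucp1-iCre line. By this sum the Myf5-traced cells lay above the other 6 myoepithelial libraries, and Ucp1-traced library 2 lay below every GFP-negative one. Single members differed in this. Dcn, at 80.1 and 58.2 CPM in the Ucp1-traced cells, was below its 228 to 547.8 in the GFP-negative libraries. Col3a1, at 519 CPM in Ucp1-traced library 1, was above the 129 and 175 of the GFP-negative Myf5-Cre cells. The difference of the line effect between GFP-positive and GFP-negative cells passed for 8 of the 15, all in the same direction. Over all genes tested, 10.7% were called lower for that difference. Only 6 of the 15 had at least 10 counts in both Ucp1-traced libraries.

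Dcn (ENSMUSG00000019929, chromosome 10, 97479609 to 97518143, plus strand), the collagen-binding proteoglycan decorin, fell from 10860 and 3572 to 80.1 and 58.2 CPM (log2 difference -6.71, SE 0.92, edgeR adjusted p = 0.00162). Col3a1, a fibrillar collagen chain, fell from 2458 and 3911 to 519 and 97.3 CPM (log2 difference -3.37, SE 0.72, edgeR adjusted p = 0.0119). Lumican, encoded by Lum and another collagen-binding proteoglycan, fell from 2680 and 909 CPM to 4 and 3 counts, 0.147 and 0.0728 CPM (edgeR adjusted p = 0.000929). These matrix genes thus fell by wide and unequal amounts. Col1a1, the main collagen of connective tissue, was at 1076 and 738 CPM against 77.4 and 0.0728 and did not pass (edgeR adjusted p = 0.138), its Ucp1-traced libraries being far apart.

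Dpt, dermatopontin, had 1 count in the Ucp1-traced libraries against 500 and 220 CPM in the Myf5-traced ones, a ratio of 22000 with an exact 95% counting interval of 3940 to 868000 (edgeR adjusted p = 0.00088). Dpp4 and Fbln1, markers of connective-tissue progenitors and of matrix fibres, had 0 counts in both Ucp1-traced libraries. Dpp4 stood at 128 and 126 CPM in Myf5-traced cells, at least 2890-fold more (edgeR adjusted p = 0.00295), and Fbln1 at 109 and 246, at least 4050-fold more (edgeR adjusted p = 0.0198). Pdgfra, the platelet-derived growth factor receptor of fibroblasts and fat-cell precursors, stood at 167 and 200 CPM against 0 and 34.8 (edgeR adjusted p = 0.265).

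The pericyte sum was lower as well. Of 13 genes, 0 rose and 3 fell, against 15.2% of all genes, and 9 were lower without overlap, against 29.9%. The median was -1.61 and the sum was 4010 and 3553 CPM in Myf5-traced against 1159 and 956 in Ucp1-traced cells. Vtn, vitronectin, fell from 231 and 253 to 25.0 and 33.2 CPM (log2 difference -3.06, SE 0.64, edgeR adjusted p = 0.0105). Rgs4, a regulator of G-protein signalling in mural cells, fell from 382 and 264 to 24.0 and 21.3 CPM (log2 difference -3.83, SE 0.86, edgeR adjusted p = 0.0146), which became 0.0548 without Myf5-traced library 1. Ndufa4l2, a hypoxia-linked mitochondrial protein of pericytes, fell from 284 and 276 to 48.8 and 34.9 CPM (log2 difference -2.74, SE 0.81, edgeR adjusted p = 0.0449), a call lost without any one of the 4 libraries. Mural cells share the contractile genes of the myoepithelium, and the part of pericyte RNA in the lower Tpm1 and Des was not tested.

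Schwann cell genes fell in the Ucp1-traced cells, and immune genes as a list did not separate the groups. Of 10 Schwann cell genes, 6 fell, against 15.2% of all genes, with a median of -7.42 that becomes -4.76 when genes at 0 are placed at their bounds. Pmp22, a myelin protein also made by fibroblasts, fell from 850 and 553 to 100 and 179 CPM (log2 difference -2.33, SE 0.47, edgeR adjusted p = 0.00899) and was the one member with at least 10 counts in both Ucp1-traced libraries. S100b, a calcium-binding protein of glia, was at 8.22 and 4.89 CPM against 0, at least 149-fold lower (edgeR adjusted p = 0.00097). Mbp, myelin basic protein, had 1 count in the Ucp1-traced libraries, a ratio of 595 (exact 95% counting interval 106 to 23600, edgeR adjusted p = 0.00318). The 16 immune genes summed to 625.3 and 926.9 CPM in Myf5-traced and 918 and 700.8 in Ucp1-traced cells, which overlap. Of the 16, 2 fell, near the 15.2% of all genes: Ptprc, the common leukocyte antigen, from 18.7 and 4.01 CPM to 0, at least 259-fold lower (edgeR adjusted p = 0.00686), and the macrophage gene Cd68, from 3.74 and 8.62 CPM to 1 count, a ratio of 469 (exact 95% counting interval 83.6 to 18600, edgeR adjusted p = 0.00245). S100b, Ptprc and Cd68 lie at levels where the Ucp1-traced libraries often had no count.

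Red-cell and muscle genes were read as further signs of other cells. The 7 erythroid genes found summed to 18.37 and 48.22 CPM in Myf5-traced and 98.42 and 99.26 in Ucp1-traced cells. Of the 5 tested, 0 were called. The globin genes on the list are near-identical copies whose reads can be split. Of 12 tested skeletal muscle genes, 0 rose and 2 fell, near the 15.2% of all genes called lower. None of the 12 had at least 10 counts in both Ucp1-traced libraries. Their median was -6.40, or -3.90 with genes at 0 placed at their bounds. Of the 16 muscle genes on the list, 11 had 0 counts in both Ucp1-traced libraries, and Acta1, skeletal actin, had 12.4 CPM in library 1 and 0 in library 2.

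**Figure D3:**
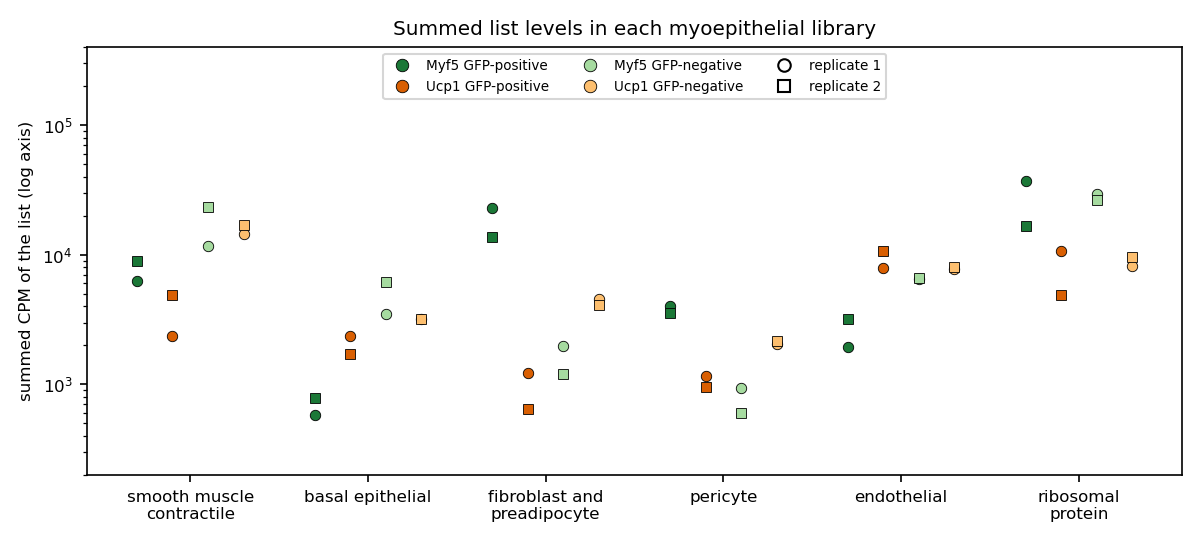
Summed CPM, on a log axis, of 6 gene lists in each of the 8 myoepithelial libraries, with colour for the group and shape for the replicate. The fibroblast sum is 22760 and 13730 CPM in the Myf5-traced libraries and 1229 and 651.5 in the Ucp1-traced ones, while the endothelial sum runs the other way, 1933 and 3210 against 7839 and 10720.

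The basement membrane that lies under the myoepithelium split between the groups. Of 13 genes, 1 rose and 3 fell, against 2.14% and 15.2% of all genes, and the median was 0.53. Hspg2, perlecan, rose from 42.1 and 12.9 to 167 and 258 CPM (log2 difference 2.95, SE 0.70, edgeR adjusted p = 0.0184), a call lost without Myf5-traced library 2. Sparc, a collagen chaperone, fell from 6444 and 5895 to 1547 and 2435 CPM (log2 difference -1.63, SE 0.45, edgeR adjusted p = 0.0348), and Nid1, nidogen, from 474 and 342 to 170 and 154 CPM (log2 difference -1.33, SE 0.39, edgeR adjusted p = 0.0438). Both calls were lost without Myf5-traced library 1 and without Ucp1-traced library 1, that of Sparc also without Myf5-traced library 2 and that of Nid1 without Ucp1-traced library 2. Lama2, the laminin chain of muscle and stroma, fell from 150 and 126 CPM to 0, at least 3140-fold lower (edgeR adjusted p = 0.000933).

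The largest rises were in genes with almost no counts in the Myf5-traced cells. Hp (ENSMUSG00000031722, chromosome 8, 109575128 to 109579172, minus strand), haptoglobin, a haemoglobin-binding plasma protein that fat cells and liver secrete, had the smallest adjusted p among them: 0 and 0.106 CPM (3 counts) in Myf5-traced and 15.1 and 19.7 in Ucp1-traced cells, a ratio of 265 (exact 95% counting interval 90.3 to 1280, edgeR adjusted p = 0.00148). Aloxe3, an epidermal lipoxygenase, had 0 counts in the Myf5-traced libraries and 19.6 and 25.8 CPM in the Ucp1-traced ones, at least 336-fold higher (edgeR adjusted p = 0.00679). Skap1, a T-cell adaptor, had 1 count against 17.7 and 5.95 CPM, a ratio of 472 (exact 95% counting interval 84.5 to 18700, edgeR adjusted p = 0.00761). Rec8, a meiotic cohesin subunit, had 1 count against 4.82 and 17.5 CPM, a ratio of 554 (exact 95% counting interval 99.2 to 21900, edgeR adjusted p = 0.0102). The known roles of these 4 genes differ.

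Other genes rose with 0 counts in the Myf5-traced libraries but missed the threshold without either of those libraries. Crhr1, a receptor for corticotropin-releasing hormone, reached 17.8 and 22.5 CPM, at least 298-fold higher (edgeR adjusted p = 0.0214). In the GFP-negative cells Crhr1 had 0 and 0.324 CPM in the Myf5-Cre line and 13.0 and 12.5 in the Ucp1-iCre line, and the difference of the line effect did not pass (edgeR adjusted p = 0.254). Zglp1, a germline zinc finger factor, reached 16.0 and 12.8 CPM, at least 213-fold higher (edgeR adjusted p = 0.0254). Ido1, which degrades tryptophan, reached 6.88 and 14.2 CPM, at least 156-fold higher (edgeR adjusted p = 0.016). In the next set, 1 Ucp1-traced library held nearly all the counts. Pak6, a protein kinase, had 43.2 and 2.45 CPM, at least 339-fold higher (edgeR adjusted p = 0.017), Zc3h12d, an RNA-degrading zinc finger protein, 42.6 and 1.51, at least 327-fold higher (edgeR adjusted p = 0.0269), and Tm4sf4, a tetraspanin relative, 24.8 and 1.29, at least 193-fold higher (edgeR adjusted p = 0.0251). Cyp2e1, the ethanol-inducible cytochrome P450 of liver and fat, had 3 counts in the Myf5-traced libraries and 27.9 and 0.413 CPM in the Ucp1-traced ones, a ratio of 168 (exact 95% counting interval 57.3 to 816, edgeR adjusted p = 0.028). Tm4sf4 and Cyp2e1 also missed the threshold without Ucp1-traced library 1. Shisal1, Foxred2 and Tbx21 had 0 counts in the Myf5-traced libraries and 59.2, 36.1 and 31.6 CPM in Ucp1-traced library 1, but 0 in library 2, and none passed.

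Matrix and secreted products were among the largest falls above the same minimum of counts. Fbn1, the microfibril protein fibrillin, fell from 429 and 328 to 1.14 and 0.243 CPM (log2 difference -9.11, SE 1.12, edgeR adjusted p = 0.00113). Gsn (ENSMUSG00000026879, chromosome 2, 35256380 to 35307892, plus strand), the actin-severing protein gelsolin, fell from 19610 and 22980 to 607 and 139 CPM (log2 difference -5.83, SE 0.99, edgeR adjusted p = 0.00381). Anxa1, a phospholipid-binding annexin, fell from 2492 and 1173 to 17.3 and 32.5 CPM (log2 difference -6.20, SE 0.70, edgeR adjusted p = 0.000929). Both Ucp1-traced libraries were far below both Myf5-traced ones for each of the 3. Serping1, the C1 inhibitor of complement, fell from 2199 and 1712 to 28.3 and 54.7 CPM (log2 difference -5.56, SE 0.82, edgeR adjusted p = 0.00208), and Sdc2, a heparan sulphate proteoglycan, from 527 and 269 to 0.478 and 2.94 CPM (edgeR adjusted p = 0.00149).

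Cell-internal genes were among the largest falls too. Arfip1, a Golgi adaptor, fell from 52.0 and 60.4 to 0.625 and 0.461 CPM (log2 difference -6.68, SE 0.66, edgeR adjusted p = 0.00088), and Prkacb, a catalytic subunit of protein kinase A, from 61.7 and 70.3 to 0.404 and 1.77 CPM (edgeR adjusted p = 0.00184). Nrip2, a nuclear receptor cofactor, fell from 125 and 191 to 1.95 and 0.534 CPM (edgeR adjusted p = 0.00172). Got1, cytosolic aspartate aminotransferase, fell from 88.4 and 73.0 to 0.772 and 3.18 CPM (edgeR adjusted p = 0.00565). These 4 are not markers of 1 stromal type. In the GFP-negative libraries Arfip1 ran from 28.6 to 46.8 CPM, Prkacb from 34.4 to 74.9, Got1 from 32.4 to 114 and Nrip2 from 7.41 to 29.4. Each was lower in both Ucp1-traced libraries than in any GFP-negative one. Arfip1 and Nrip2 were also higher in both Myf5-traced libraries than in any GFP-negative one, and Prkacb and Got1 were not. The part that loss of genes from the Ucp1-traced libraries had in these falls was not tested. Impact, a translation regulator, fell from 125 and 34.2 to 1.10 and 0.971 CPM (edgeR adjusted p = 0.0027), and Tril, a Toll-like receptor cofactor, from 26.8 and 83.6 to 0.368 and 0.753 CPM (edgeR adjusted p = 0.0266, or 0.0701 without Myf5-traced library 2).

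Genes with 0 counts in both Ucp1-traced libraries included some that were abundant in the Myf5-traced cells. Sfrp4, a Wnt antagonist, stood there at 4024 and 2532 CPM, at least 74700-fold higher than the bound in the Ucp1-traced cells (edgeR adjusted p = 0.00508), and Has1, a hyaluronan synthase, at 1454 and 1823 CPM, at least 37400-fold higher (edgeR adjusted p = 0.00088). F3, tissue factor, stood at 1044 and 685 CPM, at least 19700-fold higher, and Olfml3, a secreted olfactomedin, at 500 and 280 CPM, at least 8890-fold higher. Chrdl1, Dkk3, Efemp1 and Itgbl1 had bounds of 8780, 7290, 7280 and 5700. Chrdl1 is an inhibitor of bone morphogenetic proteins and Dkk3 a secreted dickkopf protein.

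Among 18 nuclear genes of oxidative phosphorylation, 0 rose and 5 fell, against 15.2% of all genes, and 16 were lower without overlap, against 29.9% of all genes and 22.1% of those above the minimum of 10 counts that all 18 passed. The median was -1.22, against -0.47 for the same list between the GFP-negative cells. Cox6c, a cytochrome oxidase subunit, fell from 281 and 76.8 to 25.4 and 29.2 CPM (log2 difference -2.71, edgeR adjusted p = 0.0116), and Ndufb8, a complex I subunit, from 82.3 and 46.5 to 14.3 and 3.81 CPM (log2 difference -2.83, edgeR adjusted p = 0.0191). Atp5o, Cox5a and Ndufa4 also fell, by 1.62, 1.54 and 1.38 on the log2 scale. Of the 12 tested mitochondrially encoded genes 0 passed, and their median was 0.46. The 5 calls became 1 without Myf5-traced library 1 and 1 when transcript length entered the fit.

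Fatty acid oxidation gave 0 calls among 17 genes by edgeR: the median was -0.14 and changes sign under several settings. Hadha, the long-chain trifunctional enzyme, stood at 54.9 and 39.7 CPM against 98.7 and 93.3 (edgeR adjusted p = 0.0736). Of 18 glycolysis and hypoxia genes 0 rose and 2 fell, hexokinase 2 (Hk2, 136 and 50.8 CPM against 0.368 and 0, edgeR adjusted p = 0.0031) and phosphoglycerate kinase (Pgk1, 83.9 and 77.2 against 20.96 and 14.5, edgeR adjusted p = 0.0234, a call lost without Myf5-traced library 1 or Ucp1-traced library 2). Cell cycle genes gave 0 rises and 1 fall among 19, and the immediate-early and heat-shock genes that respond to tissue dissociation gave 0 calls among 16, with a median of 0.51. Of 18 genes that most cells express, 0 rose and 1 fell, with a median of -0.61. Beside these list counts, 2.14% of all genes rose and 15.2% fell.

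Ribosomal protein genes, a list added after the values were seen, fell in bulk. Of 78 tested, 35 fell and 0 rose, against 15.2% and 2.14% of all genes. Without overlap 74 were lower, against 29.9% of all genes, and the median was -1.99. The sum over the 79 found was 37090 and 16750 CPM in Myf5-traced and 10620 and 4918 in Ucp1-traced cells. Most of the 78 were also lower in the GFP-negative cells of the Ucp1-iCre line, 75 of them without overlap, against 17.8% of all genes. There the median was -1.69 and the sums were 29190 and 26230 in the Myf5-Cre line against 8223 and 9620. Ribosomal protein mRNA was thus lower in the Ucp1-iCre line in both the green and the GFP-negative sort. Many of these genes have near-identical pseudogenes, and the sources used here do not give how shared reads were counted. The 35 became 1 without Myf5-traced library 1, 10 without Ucp1-traced library 2 and 6 when transcript length entered the fit.

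Short transcripts were lower and long ones higher in the Ucp1-traced cells. Among 6830 protein-coding genes with at least 10 counts in all 4 libraries, the 678 in the shortest of 10 bins of transcript length, 204 to 1267 bases, had a median log2 difference of -1.19, and the 786 in the longest bin, 6638 to 27910 bases, had 0.83. In the shortest bin 23.2% were called lower and 0.147% higher, and in the longest 9.41% were higher and 2.29% lower. The median length was 4654.5 bases for genes that rose, 1763 for genes that fell and 3232.5 for all. Between the 2 Myf5-traced libraries the shortest bin also differed, by -0.77 for library 2 against library 1, while the 2 Ucp1-traced libraries differed by -0.02. The GFP-negative lines showed -0.54 in the shortest and 0.06 in the longest bin. Transcript length therefore moves with the calls, and its part in them was not tested beyond the fit with length as an offset, where Adipoq, Lipe, Dgat2 and Hp passed as before. Gpd1, Scd1, Acacb, Dst, Hspg2 and Ndufa4l2 missed the threshold in that fit.

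**Figure D4:**
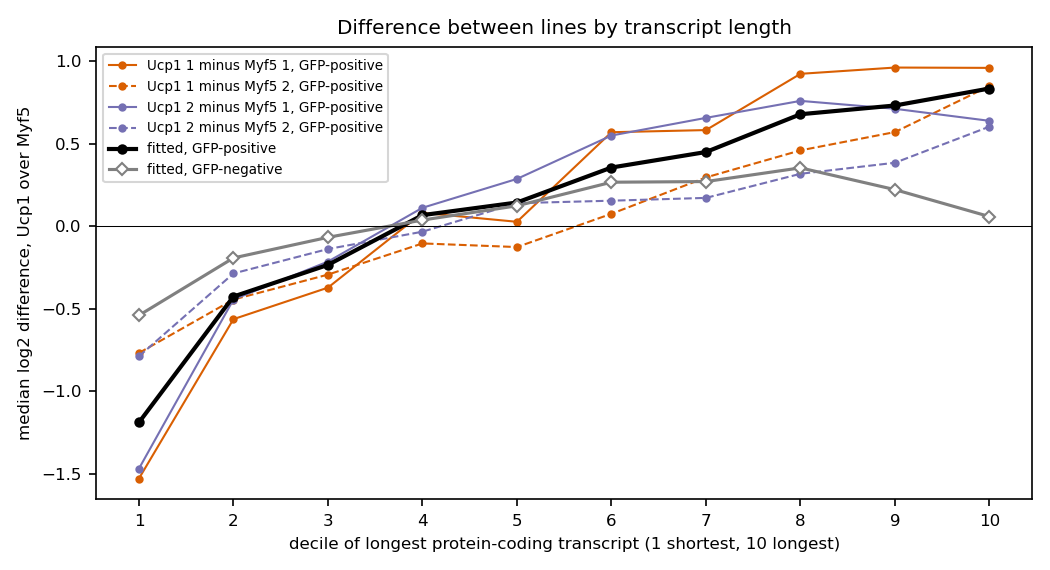
Median log2 difference, Ucp1-traced over Myf5-traced and GFP-negative Ucp1-iCre over GFP-negative Myf5-Cre, in 10 bins of transcript length from shortest to longest, with thin lines for each pair of GFP-positive libraries. The fitted GFP-positive line runs from -1.19 in the shortest to 0.83 in the longest bin, and the GFP-negative line from -0.54 to 0.06.

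The metallothioneins, picked after their values were seen, fell in the Ucp1-traced cells and are printed with their promoters because both genes moved together. Mt1 (ENSMUSG00000031765, chromosome 8, 94179082 to 94180327, plus strand) and Mt2 (ENSMUSG00000031762, chromosome 8, 94172664 to 94173568, plus strand) encode small zinc- and copper-binding proteins induced by metals and glucocorticoids. The windows below come from RefSeq in GRCm38.p6, chr8:94178839-94179138 for Mt1 and chr8:94172368-94172667 for Mt2, both on the plus strand and from 250 bases before to 50 after the start. Capitals mark the core of the metal response element, searched as TGCACNC or TGCGCNC on both strands.
Mt1: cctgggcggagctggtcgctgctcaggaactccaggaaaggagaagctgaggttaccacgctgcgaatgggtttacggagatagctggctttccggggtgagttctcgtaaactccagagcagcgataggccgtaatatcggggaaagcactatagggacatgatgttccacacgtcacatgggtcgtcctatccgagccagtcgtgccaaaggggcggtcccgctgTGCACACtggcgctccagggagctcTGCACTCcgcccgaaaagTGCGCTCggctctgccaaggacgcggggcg
Mt2: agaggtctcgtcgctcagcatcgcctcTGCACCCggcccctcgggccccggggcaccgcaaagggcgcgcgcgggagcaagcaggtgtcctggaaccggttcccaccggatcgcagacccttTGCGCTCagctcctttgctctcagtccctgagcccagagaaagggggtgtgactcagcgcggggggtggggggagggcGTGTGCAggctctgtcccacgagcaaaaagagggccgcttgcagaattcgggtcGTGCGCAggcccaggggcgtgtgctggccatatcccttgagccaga
Mt1 holds 3 matches and Mt2 holds 4, where 25.7% of the 32841 windows hold at least 1 and 1.97% hold 3 or more. These are letter matches only.

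Mt1 fell from 2555 and 1311 CPM in Myf5-traced to 73.2 and 58.2 in Ucp1-traced cells (log2 difference -4.88, SE 0.56, edgeR adjusted p = 0.000933). Mt2 fell from 673 and 193 to 10.5 and 20.3 CPM (log2 difference -4.81, SE 0.77, edgeR adjusted p = 0.00299). Both were low in both Ucp1-traced libraries and high in both Myf5-traced ones. The GFP-negative cells held 1324 and 1524 CPM of Mt1 in the Myf5-Cre line and 211 and 182 in the Ucp1-iCre line, a log2 difference of -2.86, and 182 and 155 against 45.8 and 37.0 CPM of Mt2, a difference of -2.02. The difference of the line effect between green and GFP-negative cells did not pass for Mt1 (edgeR adjusted p = 0.1) or Mt2 (edgeR adjusted p = 0.102), and both genes were lower in the Ucp1-iCre line without overlap in both sorts.

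Between the GFP-negative cells of the lines, edgeR called 0 of 16953 genes (0%), with 604 under an unadjusted p of 0.05; DESeq2 called 43 and limma-voom 0. Without overlap, 30.4% of genes were higher and 17.8% lower in the Ucp1-iCre line. The test of whether the line effect differed between GFP-positive and GFP-negative cells passed for 1861 genes (11%), 48 higher (0.283%) and 1813 lower (10.7%) in the Ucp1-traced cells. Above the minimum of 10 counts in both Ucp1-traced libraries it passed for 152 genes (2.04%), 48 higher (0.644%) and 104 lower (1.39%). Of the 357 genes called higher with that minimum, 203 were also higher without overlap between the GFP-negative lines, and of the 421 called lower, 210 were lower. In 140 of these 778 genes the difference of the line effect passed as well. Lipe, Dgat2, Hp, Aloxe3, Skap1 and Rec8 were among the 48 higher, and Dcn, Col3a1, Fbn1, Gsn, Anxa1, Vtn and Rgs4 among the 104 lower. For Adipoq that test did not pass (edgeR adjusted p = 0.0766), nor for Itga6 (edgeR adjusted p = 0.0628).

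**Figure D5:**
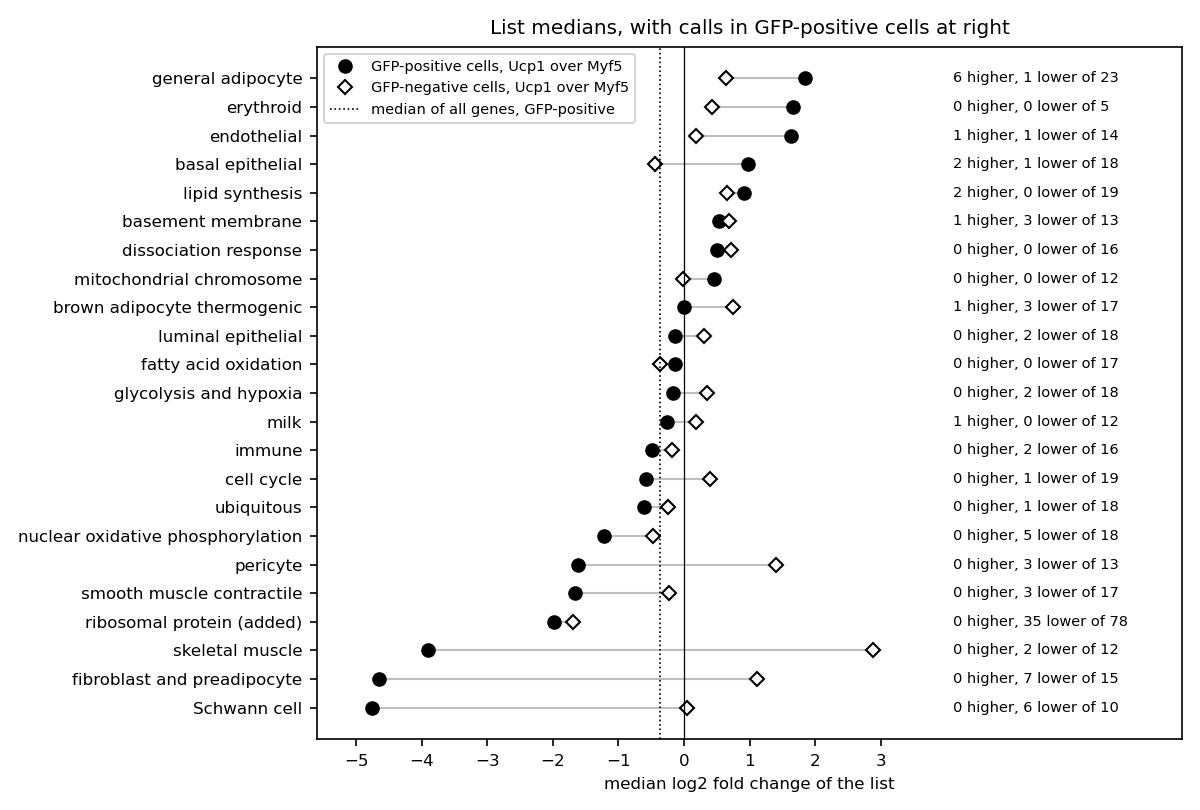
Median log2 difference of each gene list between Ucp1-traced and Myf5-traced cells, beside the same list between the GFP-negative lines, with genes at 0 placed at their bounds in the GFP-positive values, the median of all genes as a dotted line and the number of called genes at the right. Fibroblast genes lie at -4.66 beside 1.12, general adipocyte genes at 1.85 beside 0.65, and ribosomal protein genes at -1.99 beside -1.69.

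Of the 109 genes read in each setting, 82 were called, and 48 of the 82 were called in all 13 other fits that used more than 4 libraries. Among the 25 that rose with at least 10 counts in both Ucp1-traced libraries, 6 were called in all 13: Adipoq, Lipe, Hp, Aloxe3, Skap1 and Rec8. Among the 28 that fell with the same minimum, 16 were called in all 13. None of the 82 passed in the fit of the 4 libraries alone. The 109 were named by rules that favour called genes, so the 82 follow from that choice, where 17.3% of all genes tested were called. The minimum of 10 counts favours higher values in the Ucp1-traced cells, and the 13 fits share libraries. These counts therefore add no support beyond the fit reported.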

How the data were processed

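RNA from sorted cells was prepared with the RNeasy Micro kit, amplified with the SMART-Seq v4 Ultra Low Input kit and sequenced on an Illumina HiSeq instrument, per the labels' protocols. The deposited files hold whole-number read counts for 38924 genes in each library. The submitters' processing notes name TopHat, HTSeq, DESeq2 and mm10; which annotation was counted, on which strand, and with what rule for shared reads is not given in the sources used here. Symbols and positions came from GENCODE M21, which named 37607 of the genes. All 12 libraries entered 1 edgeR 4.0.16 quasi-likelihood fit (R 4.3.3) with TMM factors, a minimum count of 10 in filterByExpr and Benjamini-Hochberg adjustment at 0.05. CPM were scaled by the TMM factors. Contrasts were Ucp1-iCre over Myf5-Cre in GFP-positive cells, the same in GFP-negative cells, and their difference. Alternatives used DESeq2 1.42.0, limma 3.58.1, other factors, filters and library sets, a replicate block and, added later, length offsets. The fit was tested on simulated data. There were 0 unused per-library columns. Intervals and floors of 3 counts cover counting error only. Named were the targets and sort genes, the largest changes among called genes, the most abundant genes at 0 in one group, and called or defining members of each list. The comparison, its members and its lists were chosen with earlier results of these data known. Figures used matplotlib 3.10.9.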

Additional observations from a re-analysis of the deposited data

Results flagged for a closer look

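The line effect, Ucp1-iCre over Myf5-Cre, differed between GFP-positive and GFP-negative cells for 1861 of the 16953 genes tested (edgeR adjusted p of the difference). Among the 109 genes read in each setting, 75 had at least 10 counts in both Ucp1-traced libraries, and the difference passed for 26 of them, 11 higher and 15 lower in the Ucp1-traced cells. Over all 7457 tested genes with that minimum it passed for 2.04%, 0.644% higher and 1.39% lower. Many of the 75 were named for their GFP-positive difference, which enters this test, so nothing is read from their larger share. Every adjusted p below comes from edgeR and belongs to the difference of the line effect.

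Among the 11 higher, Hp had an adjusted p of 0.00568, Lipe 0.0142 and Dgat2 0.0302. Rec8 had 0.0221, Aloxe3 0.0223 and Skap1 0.0232. Ido1 had 0.0341, Zc3h12d 0.0353, Zglp1 0.0374, Tm4sf4 0.0439 and Pak6 0.0476.

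Among the 15 lower, Fbn1 had an adjusted p of 0.00256, Anxa1 0.00342, Sdc2 0.00369, Col3a1 0.00379, Serping1 0.0038, Dcn 0.00424 and Gsn 0.0068. The pericyte genes Vtn, Rgs4 and Ndufa4l2 had 0.0104, 0.0184 and 0.0477, and nidogen (Nid1) 0.0385. Of the genes that act inside the cell, Arfip1 had 0.00198, the smallest of the 26, Nrip2 0.00342, Prkacb 0.00532 and Impact 0.02.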

How the results depend on the processing

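The count of called genes in the GFP-positive comparison, 2934, became 5382 by DESeq2 and 0 in the fit of the 4 libraries (2920 under an unadjusted p of 0.05), and lay between 2537 and 4983 with 1 library left out. With at least 10 counts in both Ucp1-traced libraries, 778 became 1969 by DESeq2 (1062 higher, 907 lower), 1288 by limma-voom, 0 in the fit of 4 libraries, and 257 to 1517 with 1 library left out. The 0 calls between GFP-negative lines became 43 by DESeq2. The 1861 calls of the difference became 3096 by DESeq2, 1187 with the 8 myoepithelial libraries and 949 to 3740 with 1 library left out. The labels number the libraries 1 and 2 in each group. A replicate block on that number gave 2431, 615, 0 and 1516 calls. The deviations of same-numbered libraries correlated at 0.0117 between the GFP-positive groups, -0.0858 between the GFP-negative ones, 0.0686 between the Ucp1-iCre sorts and -0.109 between the brown adipocytes, but at 0.472 between the Myf5-Cre sorts, which enter the test of the difference. With 2 pairs and no label that names a shared animal or day, the number was not taken to pair the libraries.

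List medians moved as follows. The luminal median was 0.513 in the fit of 4 libraries, 0.0558 with length offsets, 0.592 with at least 10 counts in all 4 libraries and -1.03 to 0.294 with 1 library left out. The milk median was 0.348 with length offsets and -0.607 to 0.605 with 1 left out, and lipid synthesis was 0.0649 by limma-voom. Fatty acid oxidation was 0.163 with the replicate block, 0.344 with length offsets, 0.186 with 10 counts in all 4 and -0.644 to 0.196 with 1 left out. Oxidative phosphorylation was -0.689 with length offsets, and glycolysis -0.359 to -0.138 with 1 left out. Fibroblast genes were -7.87 by limma-voom and -11.4 to -4.9 with 1 left out, and pericyte genes -1.1 with 10 counts in all 4 and -2.04 to -1.17. Endothelial genes were 1.33 to 1.97 with 1 left out. Immune genes were -1.59 by limma-voom, 0 with length offsets, 0.118 with 10 counts in all 4 and -1.09 to 0 with 1 left out. Erythroid genes were 2.69 with length offsets and 1.05 to 2.79. Skeletal muscle was -5.92 with no filter and with the replicate block, -6.82 with 8 libraries, -5.16 with 4, -3.72 by limma-voom, -5.71 with length offsets and -7.96 to -2.63 with 1 left out. Schwann cell genes were -8.95 with 4 libraries, -5.93 by limma-voom, -2.33 with 10 counts in all 4 and -8.27 to -5.34. Basement membrane was -0.0406 with length offsets and -0.467 to 1.75, cell cycle 0.457 with 4 libraries, 0.544 with 10 counts in all 4 and -3.46 to 0.153, and the dissociation list 0.162 to 1.76. The cause of these moves was not tested. The milk and mitochondrial medians have no value when those genes are removed.

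Genes not called in the fit reported changed sign as follows, as log2 differences. Itgb1 was -0.0132 with length offsets and -0.0853 to 1.03 with 1 library left out. Fabp4 was 1.52 with length offsets, where it passed (edgeR adjusted p = 0.0465), -0.061 with RLE factors and by DESeq2, -0.0519 with TMM factors from genes with 10 counts in all 12 libraries, and -0.531 to 0.997 with 1 left out. With 1 left out Cidea ran from -0.0933 to 0.445, Wap from -0.277 to 0.647 and Cnn1 from -0.0557 to 1.17, and with length offsets they were 0.848, 1.51 and 0.65. Csn2 was 0.314 with length offsets and -0.925 to 0.341 with 1 left out, and Myh11 was 0.614 without Myf5-traced library 2 and -1.21 with length offsets. The called gene Ndufa4 was 0.00507 with length offsets. The median of all genes was -0.36 in the fit reported and -1.12 by limma-voom. Genes with at least 10 counts numbered 12418 and 14315 in the Myf5-traced and 9541 and 9449 in the Ucp1-traced libraries. By counting error alone, 0 counts in a Ucp1-traced library would place a gene below about 0.110 CPM in library 1 and 0.0728 in library 2. That floor does not cover genes lost from a library. In 3138 cases a gene had at least 10 counts in one Ucp1-traced library and 0 in the other.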
